A study of Homo sapiens with 9 samples.

Results

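DNA replication genes were followed by RNA-seq in U937 cells, a human monocytic leukemia line, after induction of the leukemia fusion proteins AML1-ETO or ETO2-GLIS2. The set held 49 genes of 60623 in each expression table, chosen by name from their known roles, with earlier results of these data known. It comprised 14 genes for licensing of replication origins, 19 for the replication fork, 9 for DNA polymerases and primase, 5 for nucleotide supply, and the 2 regulators E2F1 and E2F2. All 49 names were found in the 9 tables, each with 1 gene identifier. At 48 h of AML1-ETO induction, 40 of the 49 genes were more than 2-fold lower than at 0 h and none was more than 2-fold higher. The median log2 change of the 49 was -1.49, compared with -0.61 in the ETO2-GLIS2 line and -0.42 in the empty vector line.

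Replication origins are licensed in G1 phase, when the origin recognition complex (ORC), CDC6 and CDT1 load the ring-shaped MCM2-7 helicase onto DNA. In S phase, CDC45 and the GINS complex join the helicase, polymerase α-primase lays down primers, and polymerases δ and ε extend them with the sliding clamp PCNA, which the RFC complex loads. Many of these genes are transcribed at the G1-S boundary under E2F transcription factors, and their mRNA levels are commonly higher in dividing than in resting cells.

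The study had 3 stable cell lines, each measured at 0, 12 and 48 h of 5 μg/ml doxycycline, with 1 library per condition. The parental line for all of them was U937, and each construct was delivered by a retroviral, doxycycline-inducible vector with puromycin resistance. The AML1-ETO line (clone #4) and the ETO2-GLIS2 line (clone #14) were single-cell clones that expressed an N-terminally HA-tagged fusion. The control line carried the empty vector, was labelled as wild type, and received doxycycline like the other lines. Expression was given as FPKM, a read count per unit of exon length and of sequencing depth. Comparisons of levels between genes therefore rest on the exon length used for each gene. As recovered from the values, it was 1403 bases for PCNA, 3645 for MCM3 and 7268 for MCM5. Whether these lengths match the transcripts expressed in the cells was not checked. The depth behind the FPKM, recovered from the values, ran from 15136400 to 18443600 reads on genes per library.

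With 1 library per condition, no difference had a replicate check and no test was made. A gene was counted as changed when its FPKM, with 0.01 added, differed by more than 2-fold from 0 h of the same line. Where a range in parentheses follows a log2 change, it is the exact 95% Clopper-Pearson interval from the recovered reads. This interval concerns counting error only and leaves out differences between cultures and library preparations. Since the reads carry no molecular identifiers, 1 molecule may be read more than once. The interval may therefore be too narrow even for counting error. As a yardstick for differences between cultures, the SD of log2 FPKM over the 3 uninduced libraries, which differ in line, had a median of 0.25 over the 49 genes, from 0.04 for PRIM2 to 0.58 for MCM2. In bulk RNA, fewer cells in S phase and less mRNA per cell cannot be told apart.

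RUNX1T1, GLIS2 and CBFA2T3 followed the labels, each rising with doxycycline in the line that carried its fusion. RUNX1, which encodes the AML1 part of AML1-ETO, did not rise, at 17.4, 17.8 and 16.8 FPKM in the AML1-ETO line. At 48 h RUNX1 was at 26.2 FPKM in the control line and 25.3 FPKM in the ETO2-GLIS2 line. RUNX1T1, which encodes the ETO part of AML1-ETO, was at 0.512, 22.2 and 28.7 FPKM in the AML1-ETO line and at most 0.024 FPKM in the other 6 libraries. In the ETO2-GLIS2 line, GLIS2 was at 2.39, 6.79 and 8.85 FPKM. CBFA2T3, which encodes ETO2, was at 4.10, 11.4 and 12.6 FPKM there. Unlike RUNX1T1, both genes were also expressed in the other lines. The control line had GLIS2 at 3.64 to 4.76 FPKM and CBFA2T3 at 4.75 to 6.38 FPKM. At 48 h of AML1-ETO, GLIS2 was at 2.47 FPKM and CBFA2T3 at 0.22 FPKM. Before doxycycline, both genes were lower in the ETO2-GLIS2 line than in either other line. Of 12 monocytic and myeloid markers, 7 were at 1 FPKM or more in every library, while CD14, CD68 and MPO stayed below 1 FPKM in all 9. Of 15 markers of lymphoid, erythroid, epithelial, stromal, endothelial, platelet or NK cells, 9 were listed at 0 in every library (among them CD3D, CD3E, MS4A1, EPCAM, COL1A2 and CDH5), and the summed level of all 15 lay between 18.7 and 30.6 FPKM, most of it from PECAM1.

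The fall at 48 h of AML1-ETO covered the set. The 49 genes summed to 1616, 1673 and 1157 FPKM at 0, 12 and 48 h in the control line. The sums were 1252, 1154 and 443.6 FPKM in the AML1-ETO line, and those of the ETO2-GLIS2 line were 1229, 1466 and 797.6 FPKM. The library at 48 h of AML1-ETO was thus the lowest of the 9, and in each line the 48 h library was below both earlier ones. Single genes showed the same: 46 of the 49 had their lowest value of all 9 libraries at 48 h of AML1-ETO, the others being ORC2, ORC3 and ORC5, against 24.4% of all genes tested.

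At 48 h of AML1-ETO, 47 of the 49 genes were below their 0 h level, and the counting interval lay below 0 for 46 and above 0 for 1. Among all 12030 genes tested, 11.3% were more than 2-fold lower and 17.3% more than 2-fold higher, and the all-gene median was 0.22 on the log2 scale, so the median of the set was -1.70 relative to it. The 40 lower genes made up 10 of 14 licensing genes, 15 of 19 fork genes, 8 of 9 polymerase genes, 5 of 5 nucleotide genes and both E2F genes. CDC6, MCM2, MCM4, MCM5, TK1 and E2F2 passed 4-fold, as did 3.84% of all genes tested. The 9 genes that did not pass 2-fold were ORC2, ORC3, ORC5, ORC6, RFC1, RPA1, RPA2, RPA3 and POLA2, of which POLA2 had a mean below 1 FPKM in the AML1-ETO line.

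At 48 h of ETO2-GLIS2, 44 of the 49 genes were below their 0 h level, but only MCM5, POLD2 and TK1 were more than 2-fold lower. None was more than 2-fold higher. Over all genes tested, 2.54% were lower and 10.8% higher by this measure. Relative to the all-gene median of 0.16, the median of the set was -0.77.

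The control line moved the same way to a smaller extent. At 48 h, 38 of the 49 genes were below 0 h, MCM2 and POLD2 were more than 2-fold lower and none was higher, where all genes gave 2.99% lower and 8.0% higher. The median of the set was -0.58 relative to the all-gene median of 0.16. When the control line's change was subtracted, the median at 48 h was -1.14 in the AML1-ETO line, with 28 genes more than 2-fold lower against 13.2% of all genes, and none higher against 9.99%. In the ETO2-GLIS2 line the corresponding median was -0.19, and no gene of the set passed 2-fold either way, where all genes gave 3.94% lower and 4.4% higher. These differences share the control libraries, so they are not independent of each other.

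At 12 h no gene of the set passed 2-fold in any line. The medians were 0.09 in the control line, -0.06 with AML1-ETO and 0.27 with ETO2-GLIS2, against all-gene medians of 0.14, 0.18 and 0.11. Among all genes, the control line had 5.64% more than 2-fold higher and 1.88% lower, the AML1-ETO line 6.57% and 2.39%, and the ETO2-GLIS2 line 3.03% and 1.46%. Rescaling the libraries by the median ratio shifted every change by -0.10 to -0.15, which turned the small control median at 12 h to -0.04 and left the other 5 medians with their sign. In the ETO2-GLIS2 line, 43 of the 49 genes were highest at 12 h among its 3 libraries, compared with 31 in the control line and 20 in the AML1-ETO line. Of all genes tested, 30.3%, 33.3% and 32.3% were highest at 12 h in the ETO2-GLIS2, control and AML1-ETO lines. At 12 h of AML1-ETO, after subtraction of the control line's change, 39 of the 49 genes were below 0. Their median was -0.20, where the all-gene median was 0.02. Most of the fall of the AML1-ETO line lay between 12 and 48 h. The median change between these times was -1.41 with 39 genes more than 2-fold lower, against 10.2% of all genes tested. Between the same times 17 genes were more than 2-fold lower with ETO2-GLIS2, with a median of -0.79 and 2.14% of all genes, and 2 in the control line, with a median of -0.50 and 3.04% of all genes.

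**Figure D1:**
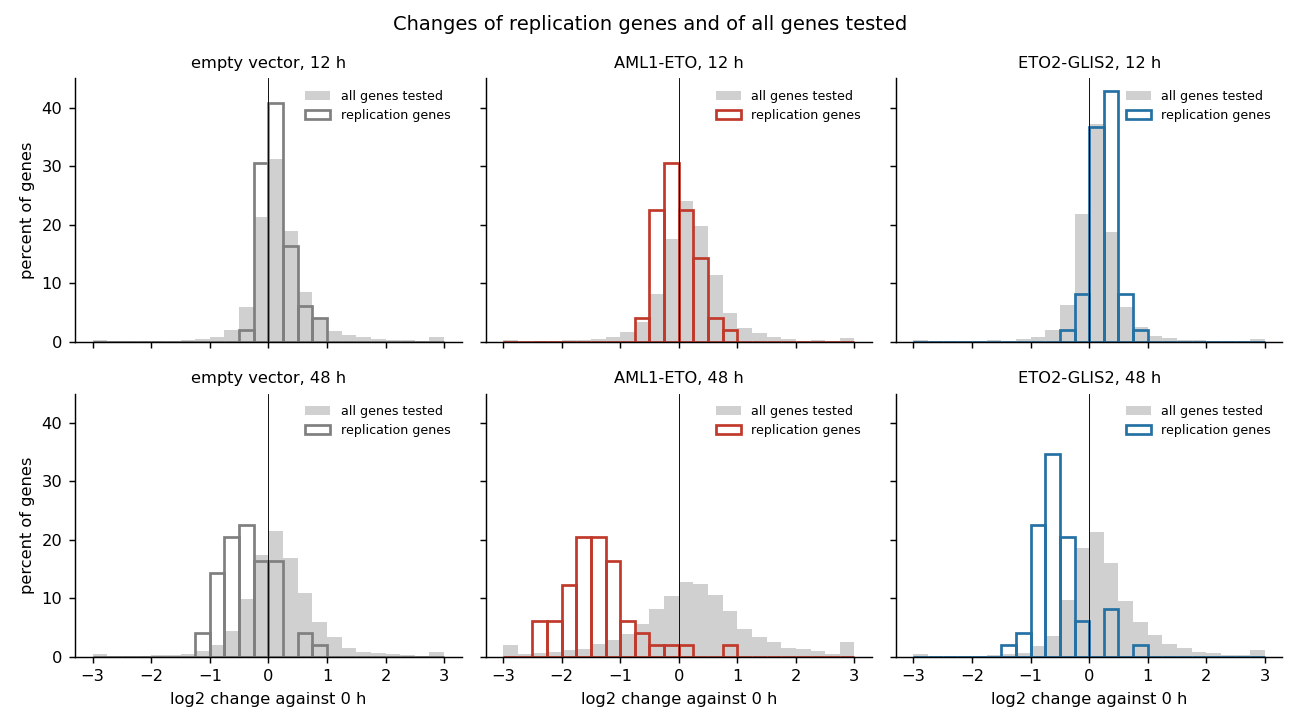
Distribution of the log2 change at 12 h (upper panels) and 48 h (lower panels) against 0 h in each line, for all genes with a mean of at least 1 FPKM and for the 49 replication genes, as shares of genes per bin, with values beyond the axis collected in its end bins. At 48 h the replication genes sit to the left of all genes in each line, with medians of -0.42 in the control line, -1.49 with AML1-ETO and -0.61 with ETO2-GLIS2.

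The promoters of the set were searched for letters that transcription factors of the cell cycle are known to bind. RefSeq promoter windows on GRCh38.p14, from 250 bases before to 50 bases after the gene start, were matched by symbol for 43 of the 49 genes, the others being MCM4, MCM5, RPA2, RPA3, POLD3 and GINS4. The letters TTTGGCGC, TTTCCCGC, TTTCGCGC or TTTGCCGC, read on both strands and allowed to overlap, stood in 20 of the 43 windows (46.5%) and in 3.31% of 35116 windows of the same length. At 48 h of AML1-ETO, 18 of the 20 genes with a match and 18 of the 23 without were more than 2-fold lower, with medians of -1.51 and -1.39. A match is a description of these letters and does not show a bound site. Of other motifs searched on both strands, CCAAT stood in 24 of the 43 windows (55.8%, against 34.6% of all), the CHR letters TTTGAA or TTCGAA in 2 (4.65%, against 16.4%), and the RUNX letters TGTGGT or TGCGGT in 9 (20.9%, against 19.6%).

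The windows below are shown because they span the range of responses. MCM2, MCM6, CDC6 and E2F2 hold a match and were more than 3-fold lower at 48 h of AML1-ETO, TK1 holds none and was lower by a similar size, and ORC2 holds none and was higher. Capitals mark E2F-type matches, overlapping where a longer run is capitalised, and sequences run 5′ to 3′ along the gene's strand. MCM2 is on the forward strand (chr3:127598161-127598460), MCM6 on the reverse strand (chr2:135876394-135876693), CDC6 on the forward strand (chr17:40287629-40287928), E2F2 on the reverse strand (chr1:23531184-23531483), TK1 on the reverse strand (chr17:78187155-78187454) and ORC2 on the reverse strand (chr2:200963611-200963910).
MCM2: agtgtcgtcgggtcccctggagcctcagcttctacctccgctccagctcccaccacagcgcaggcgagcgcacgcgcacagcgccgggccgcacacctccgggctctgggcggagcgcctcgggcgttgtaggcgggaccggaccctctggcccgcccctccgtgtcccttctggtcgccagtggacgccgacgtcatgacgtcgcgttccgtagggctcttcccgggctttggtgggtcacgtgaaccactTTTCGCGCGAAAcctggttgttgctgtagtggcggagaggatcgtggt
MCM6: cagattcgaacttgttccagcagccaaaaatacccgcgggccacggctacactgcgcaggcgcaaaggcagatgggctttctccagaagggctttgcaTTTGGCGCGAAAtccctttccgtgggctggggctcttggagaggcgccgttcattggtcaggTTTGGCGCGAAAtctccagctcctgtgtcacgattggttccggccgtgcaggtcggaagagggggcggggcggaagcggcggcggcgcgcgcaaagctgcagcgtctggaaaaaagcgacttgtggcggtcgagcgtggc
CDC6: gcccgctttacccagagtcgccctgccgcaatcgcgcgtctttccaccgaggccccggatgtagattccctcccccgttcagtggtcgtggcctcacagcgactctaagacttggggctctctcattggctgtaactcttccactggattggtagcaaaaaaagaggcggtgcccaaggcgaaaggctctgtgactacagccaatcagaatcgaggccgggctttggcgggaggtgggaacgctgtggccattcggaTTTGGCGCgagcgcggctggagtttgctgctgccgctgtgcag
E2F2: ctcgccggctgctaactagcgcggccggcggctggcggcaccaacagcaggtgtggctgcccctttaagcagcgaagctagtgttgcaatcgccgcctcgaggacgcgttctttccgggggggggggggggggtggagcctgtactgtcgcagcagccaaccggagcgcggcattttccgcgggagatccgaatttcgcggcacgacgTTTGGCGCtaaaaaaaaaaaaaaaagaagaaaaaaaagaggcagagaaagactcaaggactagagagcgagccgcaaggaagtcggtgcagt
TK1: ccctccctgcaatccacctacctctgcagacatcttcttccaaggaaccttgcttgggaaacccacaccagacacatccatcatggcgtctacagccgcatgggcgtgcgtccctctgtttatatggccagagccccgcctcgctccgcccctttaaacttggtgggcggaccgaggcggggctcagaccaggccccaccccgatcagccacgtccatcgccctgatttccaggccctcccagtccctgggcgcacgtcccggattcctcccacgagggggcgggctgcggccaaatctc
ORC2: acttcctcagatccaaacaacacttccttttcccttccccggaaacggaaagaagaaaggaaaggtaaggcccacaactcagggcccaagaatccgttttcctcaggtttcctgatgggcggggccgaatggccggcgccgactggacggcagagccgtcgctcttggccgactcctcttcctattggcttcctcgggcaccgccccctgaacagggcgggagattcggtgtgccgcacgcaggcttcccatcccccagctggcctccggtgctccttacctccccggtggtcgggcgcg
Counting the first base of the gene as 0, the capitals start at base 2 in MCM2 and base 7 in CDC6, both inside the transcribed part. They start at bases -152 and -90 in MCM6 and at base -42 in E2F2, upstream of it.

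Of the 6 MCM2-7 helicase genes, 5 were the most abundant licensing genes, and all 6 were more than 3-fold lower at 48 h of AML1-ETO. In the values that follow, the 3 numbers of a line are always 0, 12 and 48 h. MCM2 was at 77.5, 80.2 and 36.0 FPKM in the control line, 54.3, 45.5 and 12.2 FPKM in the AML1-ETO line, and 34.8, 49.0 and 18.4 FPKM in the ETO2-GLIS2 line. With AML1-ETO, MCM4 stood at 76.8, 69.9 and 15.2 FPKM, next to 109, 118 and 62.6 FPKM in the control and 66.2, 89.4 and 36.3 FPKM with ETO2-GLIS2. MCM5 had 22.4, 36.7 and 10.7 FPKM with ETO2-GLIS2 and 26.6, 28.1 and 5.14 FPKM with AML1-ETO, and had 37.7, 46.7 and 20.9 FPKM in the control line. For each of these genes the AML1-ETO library at 48 h was the lowest of the 9, and the 48 h library was the lowest of its line in all lines.

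MCM5 at 48 h of AML1-ETO was at 19.3% of its 0 h level, a log2 change of -2.37 (-2.50 to -2.24). MCM4 reached 19.9%, with -2.33 (-2.41 to -2.26), and MCM2 22.5%, with -2.15 (-2.26 to -2.05). MCM7, MCM6 and MCM3 changed by -1.96, -1.70 and -1.64, so the 6 subunits spanned 0.73 on the log2 scale around a median of -2.06. In the ETO2-GLIS2 line the same 6 genes lay between -1.06 for MCM5 and -0.64 for MCM6 at 48 h, and at 12 h they lay between 0.18 for MCM7 and 0.72 for MCM5. In the control line the range at 48 h was -1.11 for MCM2 to -0.59 for MCM3.

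MCM5 had the lowest FPKM of the 6 helicase subunits in every library, and also the longest recovered exon length of the 6, 7268 bases. The ratio of the highest to the lowest subunit was 2.43 to 3.93 in 8 libraries and 4.71 at 48 h of AML1-ETO, where MCM3 was highest at 24.2 FPKM. The uninduced lines already differed, since MCM2 was at 34.8 FPKM in the ETO2-GLIS2 line and 77.5 FPKM in the control line before doxycycline, a log2 difference of -1.16. Over the set, the uninduced AML1-ETO line lay at a median of -0.30 against the uninduced control line, with 46 of 49 genes below it, and the uninduced ETO2-GLIS2 line at -0.22, with 38 below it, where the all-gene medians were 0.01 and -0.02. In GRCh37 annotation, 23.6% of the exon length of MCM2 is covered by exons on the other strand, and the library kit did not mark strand, so reads from both strands cannot be told apart.

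The loading factors fell with the helicase at 48 h of AML1-ETO. CDC6 recruits the helicase together with CDT1, and geminin (GMNN) binds and blocks CDT1. The control line had CDC6 at 17.8, 15.2 and 10.3 FPKM, the AML1-ETO line at 13.4, 9.31 and 3.28 FPKM and the ETO2-GLIS2 line at 15.5, 15.5 and 7.91 FPKM. CDT1 measured 52.3, 53.3 and 37.7 FPKM in the control line, 38.2, 29.1 and 12.3 FPKM in the AML1-ETO line, and 28.2, 27.6 and 17.8 FPKM in the ETO2-GLIS2 line. With AML1-ETO, GMNN was found at 17.4, 17.8 and 7.83 FPKM, next to 20.2, 20.9 and 18.4 FPKM in the control and 20.1, 22.5 and 16.0 FPKM with ETO2-GLIS2. All 3 genes were lower at 48 h of AML1-ETO than in every other library, and the next lowest value was that of 48 h of ETO2-GLIS2 in each case.

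The log2 change at 48 h of AML1-ETO was -2.03 (-2.23 to -1.84) for CDC6, -1.64 (-1.78 to -1.49) for CDT1 and -1.15 (-1.36 to -0.96) for GMNN. With ETO2-GLIS2 the 3 changes were -0.97, -0.67 and -0.33, and in the control line -0.79, -0.47 and -0.14, none past 2-fold. At 12 h of AML1-ETO, CDC6 was at -0.53 and CDT1 at -0.39, whereas GMNN was at 0.03. The ratio of CDT1 to GMNN, both per length, ran from 2.58 to 2.05 in the control line between 0 and 48 h, from 2.19 to 1.57 with AML1-ETO and from 1.4 to 1.11 with ETO2-GLIS2.

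The ORC subunits, which mark origins on DNA, did not move together. ORC1 was at 25.8, 32.8 and 15.7 FPKM with ETO2-GLIS2 and 26.0, 22.3 and 8.86 FPKM with AML1-ETO, and was at 39.4, 39.1 and 21.2 FPKM in the control line. The control line had ORC2 at 6.36, 6.29 and 7.55 FPKM, the AML1-ETO line at 6.15, 8.08 and 10.9 FPKM and the ETO2-GLIS2 line at 6.82, 7.78 and 8.22 FPKM. ORC6 lay at 9.42, 16.6 and 17.4 FPKM in the control line, 8.50, 13.1 and 6.50 FPKM in the AML1-ETO line, and 8.96, 13.8 and 12.5 FPKM in the ETO2-GLIS2 line. ORC1 was lowest and ORC2 highest of all 9 libraries at 48 h of AML1-ETO, and ORC6 was lowest there but highest at 48 h of the control line.

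ORC1 changed by -1.55 (-1.71 to -1.39) at 48 h of AML1-ETO and ORC2 by 0.83 (0.68 to 0.98), which is below the 2-fold threshold. ORC3 was at -0.16 (-0.40 to 0.07), ORC5 at 0.10 (-0.20 to 0.40) and ORC6 at -0.39 (-0.57 to -0.21). The span over the 5 ORC genes was therefore 2.38, against 0.73 over MCM2-7. The ratio of ORC1 to ORC2 was 4.22 at 0 h and 0.81 at 48 h of AML1-ETO, while it went from 6.20 to 2.81 in the control line and from 3.79 to 1.92 in the ETO2-GLIS2 line. ORC5 and ORC6 were above 0 h at 12 h in all lines, by 0.41 to 0.86 and by 0.62 to 0.82.

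The fork genes were led in abundance by PCNA. With AML1-ETO, PCNA was at 164, 139 and 41.8 FPKM, next to 195, 198 and 157 FPKM in the control and 183, 222 and 109.9 FPKM with ETO2-GLIS2. PCNA thus peaked at 12 h of ETO2-GLIS2 and was lowest at 48 h of AML1-ETO, 3.94-fold below its 0 h level. Its log2 change was -1.98 (-2.08 to -1.87) in the AML1-ETO line, -0.74 (-0.81 to -0.67) in the ETO2-GLIS2 line and -0.31 (-0.37 to -0.24) in the control line.

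The 5 RFC genes, whose products load PCNA, split into the large subunit RFC1 and the smaller ones. RFC1 was at 29.3, 30.4 and 23.6 FPKM with ETO2-GLIS2 and 28.3, 23.2 and 19.6 FPKM with AML1-ETO, and was at 34.9, 33.5 and 24.3 FPKM in the control line. The control line had RFC2 at 18.2, 18.6 and 14.0 FPKM, the AML1-ETO line at 14.8, 12.2 and 3.98 FPKM and the ETO2-GLIS2 line at 19.2, 22.7 and 10.9 FPKM. RFC1 was lowest at 48 h in each line, with a log2 change of -0.52 in the control line and -0.32 with ETO2-GLIS2. By contrast, RFC2 at 48 h of AML1-ETO stood well below all other libraries. The log2 changes there were -0.53 (-0.61 to -0.45) for RFC1 and -1.89 (-2.17 to -1.61) for RFC2. RFC3, RFC4 and RFC5 changed by -1.37, -1.39 and -1.04. The ratio of RFC2 to RFC1 was 0.203 at 48 h of AML1-ETO and 0.461 to 0.747 in the other 8 libraries.

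RPA1, RPA2 and RPA3 form the complex that coats single-stranded DNA, and none of them passed 2-fold. Their changes at 48 h of AML1-ETO were -0.54, -0.92 and -0.90, and RPA2 and RPA3 were more than 2-fold lower only after rescaling, at -1.07 and -1.05. RPA3 had -0.90 (-1.12 to -0.69) in the ETO2-GLIS2 line as well, so it was one of 3 genes, with ORC2 and ORC3, that were not lowest by change in the AML1-ETO line. In the control line RPA3 was at -0.11 (-0.32 to 0.10).

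The helicase partners fell by similar amounts. CDC45 was at 22.6, 28.4 and 16.6 FPKM in the control line, 15.7, 16.6 and 4.97 FPKM in the AML1-ETO line, and 15.2, 20.1 and 9.92 FPKM in the ETO2-GLIS2 line. CDC45 was highest at 12 h in each line, and the log2 change at 48 h of AML1-ETO was -1.66 (-1.88 to -1.45). The 4 GINS genes lay between -1.50 for GINS2 and -1.22 for GINS3, a span of 0.28, and MCM10, which helps start the helicase, was at -1.80 (-2.05 to -1.56). GINS3 was the least abundant fork gene, at 0.669 to 2.82 FPKM. For GINS4, 23.4% of the exon length is covered by exons on the other strand in GRCh37 annotation.

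Genes for joining and packaging the new strands behaved likewise. With AML1-ETO, FEN1 was at 30.6, 31.8 and 8.85 FPKM, next to 43.8, 37.1 and 28.6 FPKM in the control and 38.9, 48.1 and 20.5 FPKM with ETO2-GLIS2. FEN1, the nuclease that trims Okazaki fragments, was thus 3.46-fold lower at 48 h of AML1-ETO, with a change of -1.79 (-1.98 to -1.61), compared with -0.92 in the ETO2-GLIS2 line and -0.61 in the control line. LIG1, which seals the fragments, changed by -1.51 (-1.64 to -1.38). The histone chaperone subunits CHAF1A and CHAF1B changed by -1.66 and -1.43, and CHAF1A was at -0.18 (-0.31 to -0.05) in the ETO2-GLIS2 line.

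The polymerase genes held POLD2, the only gene of the set past 2-fold at 48 h in all 3 lines. POLD2 was at 52.0, 43.4 and 18.9 FPKM with ETO2-GLIS2 and 50.4, 41.3 and 18.0 FPKM with AML1-ETO, and was at 60.0, 44.6 and 25.8 FPKM in the control line. POLD2, an accessory subunit of polymerase δ, fell in steps from 0 to 12 to 48 h in every line. Its change at 48 h was -1.22 (-1.30 to -1.13) in the control line, -1.49 (-1.59 to -1.38) with AML1-ETO and -1.46 (-1.56 to -1.37) with ETO2-GLIS2. Subtracting the control left -0.27 in the AML1-ETO line, the smallest loss of any polymerase gene.

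The catalytic subunits of polymerases α, δ and ε changed at 48 h of AML1-ETO by -1.31 (POLA1), -1.28 (POLD1) and -1.03 (POLE). The control line had POLE at 14.8, 17.2 and 11.6 FPKM, the AML1-ETO line at 12.1, 11.1 and 5.95 FPKM and the ETO2-GLIS2 line at 8.30, 10.9 and 8.18 FPKM. POLE at 48 h of ETO2-GLIS2 was almost at its 0 h level, with a change of -0.02 (-0.10 to 0.06). PRIM1, the catalytic primase subunit, had the largest change of the polymerase group at -1.74, but its counting interval of -2.35 to -1.20 was wide because it lay at 0.783 FPKM at 48 h of AML1-ETO. PRIM2, POLE2 and POLD3 changed by -1.21, -1.23 and -1.32.

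POLA2 was the least abundant gene of the set, at 0.401 to 1.51 FPKM, and 16.8% of its exon length is shared with exons of other genes on the same strand. For PRIM1 and PRIM2 this share is 15.1% and 18.3%. The change of POLA2 at 48 h was -0.80 (-1.45 to -0.19) in the AML1-ETO line, and 0.69 (0.29 to 1.11) in the control line. POLE2 at 48 h of ETO2-GLIS2, at -0.75 (-1.03 to -0.49), was the gene furthest below the control line's change, with a difference of -0.93.

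All 5 nucleotide supply genes were more than 2-fold lower at 48 h of AML1-ETO. TK1 was at 32.9, 34.9 and 21.2 FPKM in the control line, 23.1, 18.5 and 5.09 FPKM in the AML1-ETO line, and 29.9, 28.1 and 13.8 FPKM in the ETO2-GLIS2 line. With AML1-ETO, RRM1 was expressed at 36.6, 28.7 and 10.5 FPKM, next to 41.5, 40.3 and 28.3 FPKM in the control and 36.7, 40.3 and 23.3 FPKM with ETO2-GLIS2. RRM2 was present at 40.6, 52.1 and 39.6 FPKM with ETO2-GLIS2 and 37.6, 40.9 and 17.7 FPKM with AML1-ETO, and was present at 44.9, 43.0 and 47.4 FPKM in the control line. TK1, the thymidine salvage kinase, and RRM1, the large subunit of ribonucleotide reductase, were lowest at 48 h in each line, whereas RRM2, the small subunit, lay between 37.6 and 52.1 FPKM in the 8 libraries other than 48 h of AML1-ETO.

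TK1 was 4.54-fold lower at 48 h of AML1-ETO, with a change of -2.18 (-2.45 to -1.92), and 2.17-fold lower in the ETO2-GLIS2 line, with -1.11 (-1.28 to -0.95). RRM1 changed by -1.80 (-1.92 to -1.68) in the AML1-ETO line. RRM2 changed by -1.09 (-1.16 to -1.02) in the AML1-ETO line, -0.04 (-0.09 to 0.01) in the ETO2-GLIS2 line and 0.08 (0.03 to 0.13) in the control line. TYMS, which makes thymidylate, and DUT, which removes dUTP, changed by -1.54 and -1.12 in the AML1-ETO line. TYMS exons are covered to 47.9% by exons on the other strand, so its level is uncertain, and DUT has 8 pseudogenes in the table, the highest at 2.42 FPKM.

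The regulators E2F1 and E2F2 differed from each other. The control line had E2F1 at 18.6, 27.7 and 17.1 FPKM, the AML1-ETO line at 13.7, 15.8 and 4.81 FPKM and the ETO2-GLIS2 line at 13.5, 18.6 and 7.59 FPKM. E2F2 came to 12.0, 17.2 and 11.8 FPKM in the control line, 8.19, 6.73 and 1.66 FPKM in the AML1-ETO line, and 6.50, 11.4 and 11.1 FPKM in the ETO2-GLIS2 line. E2F1 was highest at 12 h and lowest at 48 h in each line. E2F2 followed that course in the control line, was below its 0 h level at both times with AML1-ETO, and was above it at 12 and 48 h with ETO2-GLIS2.

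E2F2 was 4.93-fold lower at 48 h of AML1-ETO, a change of -2.30 (-2.58 to -2.04). With ETO2-GLIS2 it was at 170.0% of its 0 h level, a change of 0.77 (0.63 to 0.91), and in the control line at -0.03 (-0.15 to 0.10). E2F1 changed by -1.50 (-1.75 to -1.27), -0.83 (-1.02 to -0.64) and -0.12 (-0.26 to 0.03) in the AML1-ETO, ETO2-GLIS2 and control lines. After subtraction of the control, E2F2 was the lowest gene of the set in the AML1-ETO line, at -2.27, and the highest in the ETO2-GLIS2 line, at 0.79.

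**Figure D2:**
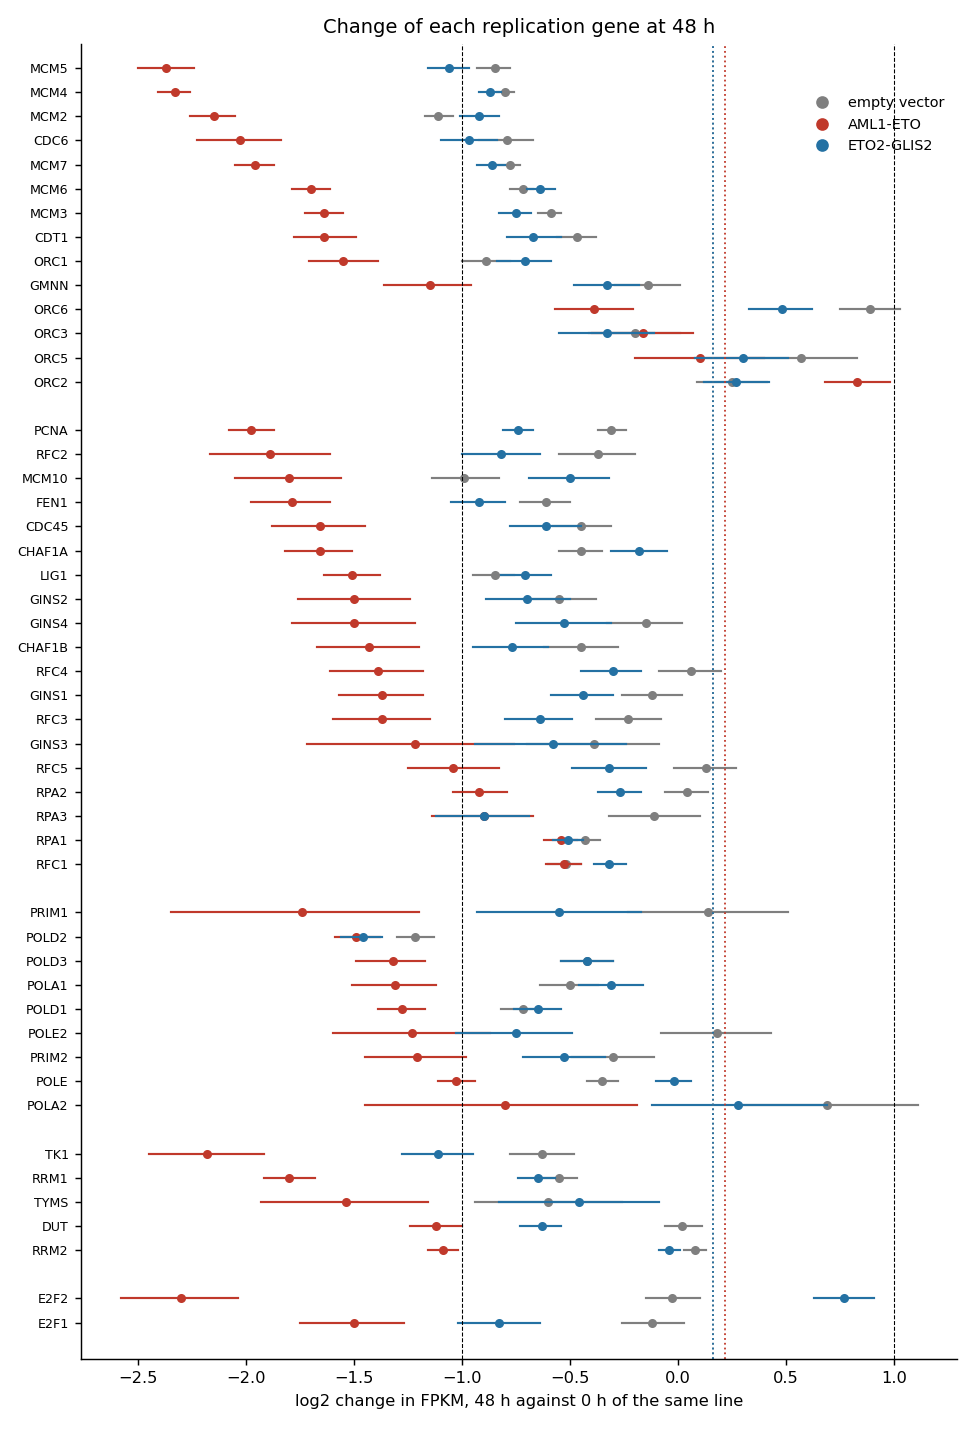
Log2 change at 48 h against 0 h of the same line for each of the 49 genes, grouped by role, with bars for the exact 95% counting interval, dashed lines at 2-fold and dotted lines at the all-gene medians. AML1-ETO points lie furthest left for 46 genes, with ORC2 at 0.83, while E2F2 is at -2.30 with AML1-ETO and 0.77 with ETO2-GLIS2.

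Other genes of DNA replication outside the set were lower as well at 48 h of AML1-ETO. Of 37 listed, 35 had a mean of at least 1 FPKM, with a median change of -0.84. Of these, 15 were more than 2-fold lower and ASF1A higher, where all genes tested gave 11.3% lower and 17.3% higher. UHRF1, which maintains DNA methylation, was at 18.9, 13.6 and 4.09 FPKM and changed by -2.20. CDC7, the kinase that activates the loaded helicase, was at 12.5, 9.90 and 2.89 FPKM and changed by -2.11. DTL, which marks CDT1 for destruction, changed by -2.09, and DSCC1, part of an alternative PCNA loader, by -1.50. In the ETO2-GLIS2 line 34 of the 37 reached 1 FPKM at 48 h, with a median of -0.17. None passed 2-fold there, where all genes tested gave 2.54% lower and 10.8% higher. The control median was -0.02.

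Most other enzymes of nucleotide metabolism did not pass 2-fold. Of 17 listed, 16 reached 1 FPKM, with a median of -0.42 at 48 h of AML1-ETO. Those more than 2-fold lower included RRM2B and MTHFD1. SAMHD1, which breaks down dNTPs, was more than 2-fold higher in both fusion lines, by 1.13 and 1.12 on the log2 scale, and was at 0.72 in the control line.

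Among 15 genes of the E2F and RB families and their partner complexes, 14 reached 1 FPKM and the median was -0.03 at 48 h of AML1-ETO. MYBL2, E2F8 and RBL1 were more than 2-fold lower and E2F5 was higher, where all genes tested gave 11.3% lower and 17.3% higher. RB1 was at 32.8, 45.5 and 59.0 FPKM in that line, a change of 0.85 (0.79 to 0.91). E2F3 and E2F4 changed by 0.35 and 0.19. RB1, E2F3 and E2F4 were chosen for mention after their values were seen.

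Of 12 S phase cyclins, kinases and inhibitors, 11 reached 1 FPKM with a median of -0.72 at 48 h of AML1-ETO. CHEK1, CDC25A, CCNA2 and CCNE2 were more than 2-fold lower there, against 11.3% of all genes tested. The CDK inhibitor CDKN1A, also named after its values were seen, changed by 0.79 there and by 0.65 in the ETO2-GLIS2 line, and was just short of 2-fold higher in the control line. Of 30 mitotic genes, 27 reached 1 FPKM at 48 h of AML1-ETO, and all 27 were below 0 h with a median of -0.99. Of these, 13 were more than 2-fold lower, led by CENPF at -2.19 and BUB1 at -1.61, against 11.3% of all genes tested. The mitotic median was -0.07 in the ETO2-GLIS2 line and 0.08 in the control line, with no gene past 2-fold in either. All genes tested gave 2.54% lower and 10.8% higher with ETO2-GLIS2, and 2.99% lower and 8.0% higher in the control line. In each of the 3 lines the mitotic median lay above that of the replication set. The set was at -1.49 with AML1-ETO, -0.61 with ETO2-GLIS2 and -0.42 in the control line. No test of these differences was possible.

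Other groups of genes moved in the same library. Of 12 housekeeping genes, 11 reached 1 FPKM and their median was -0.31 at 48 h of AML1-ETO, with GAPDH at -1.04 and B2M at 1.60, against -0.03 in the ETO2-GLIS2 line and 0.06 in the control line. The summed monocytic markers were at 1330, 1698 and 320.4 FPKM in the AML1-ETO line, 801.8, 1121 and 734.3 FPKM in the control line and 1595, 1854 and 698.9 FPKM in the ETO2-GLIS2 line. LYZ, which encodes lysozyme, made up most of these sums except at 48 h of AML1-ETO and of ETO2-GLIS2. The other 11 markers summed to 360.0, 351.5 and 275.3 FPKM with AML1-ETO, 282.9, 346.7 and 354.1 FPKM in the control, and 312.9, 336.9 and 367.1 FPKM with ETO2-GLIS2, so without LYZ the 48 h sum was below 0 h in the AML1-ETO line and above it in the others. The median change of the markers with a mean of at least 1 FPKM was 0.15 at 48 h of AML1-ETO, 0.61 in the control line and 0.30 with ETO2-GLIS2. SPI1 and LYZ were more than 2-fold lower and ITGAX higher at 48 h of AML1-ETO. At 48 h of ETO2-GLIS2, LYZ was also more than 2-fold lower, and CD33, ITGAM and ITGAX were higher. Among these markers only ITGAM passed 2-fold at 48 h in the control line, where it was higher. The part of these groups of genes in the replication result was not tested.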

How the data were processed

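RNA of 9 U937 libraries was sequenced after TRIzol extraction and TruSeq preparation, which does not mark strand. The authors aligned reads to hg38 with HISAT2 (2.0.5), processed alignments with SAMtools (1.7), assigned reads to genes with HTSeq (0.9.1) and deposited FPKM for each library. The annotation release is not given in the sources used here. Groups were taken from the sample titles, which carry no replicate numbers.

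From the deposited FPKM, log2 of FPKM plus 0.01 was compared with 0 h of the same line, using Python (3.11.15), numpy (2.4.6), pandas (2.3.3), scipy (1.17.1) and matplotlib (3.10.9). All-gene figures use genes with a mean of at least 1 FPKM in the 2 libraries compared. Since FPKM steps reflect whole reads, reads were recovered from gene lengths in the values for 49 of 49 genes of the set and used for exact intervals only. The recovery was tested on simulated data. No count test was run, because there is 1 library per condition.

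The genes and gene lists were chosen with earlier results of these data known. Genes named were those past 2-fold, the extremes of each role and the helicase, loading and E2F genes; in other lists, up to 4 genes past 2-fold with the largest change, except for a gene that is not reported here. Exon overlap was read from GRCh37 annotation by identifier, and promoters from RefSeq (GRCh38.p14). Alternatives covered the pseudocount, filter, scaling, threshold, reference library, subtraction of the control line and repeated gene names. The 12 h reference and the marker sum without LYZ were added after seeing the data.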

Additional observations from a re-analysis of the deposited data

Results flagged for a closer look

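E2F2 was the one gene of the set whose change went in opposite directions in the fusion lines at both times, with counting intervals on either side of 0. It was below its 0 h level at 12 and 48 h of AML1-ETO and above it at 12 and 48 h of ETO2-GLIS2, and after rescaling by the median ratio its counting interval excluded 0 in each of the 4 comparisons. The log2 change in the AML1-ETO line minus that in the ETO2-GLIS2 line was -1.09 at 12 h and -3.06 at 48 h. With 1 library per condition this difference was not tested. The direction of E2F2 in the ETO2-GLIS2 line also depended on the reference library. At 0, 12 and 48 h E2F2 was at 6.50, 11.4 and 11.1 FPKM there. Each of these values was below the 12.0 FPKM of the uninduced control line. Other genes went in opposite directions at 1 of the times, among them ORC6 at 48 h, which changed by -0.39 (-0.57 to -0.21) with AML1-ETO and 0.48 (0.33 to 0.62) with ETO2-GLIS2.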

How the results depend on the processing

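With 1 library per condition, no replicate could be left out. A median was taken as moved when it left the 95% binomial order-statistic interval of the 49 changes. This interval describes the spread over genes, which are not replicates of a condition. Staying within it is therefore no measure of reproducibility. Of 135 alternative values for 18 results, 106 stayed within that interval or within 1.5 times a count, 27 moved and 2 changed sign. The 106 include values fixed in advance. Dropping the filter and summing repeated names could not change a result, since the set was not filtered and each name had 1 identifier. Many of the counts were 0 and stayed 0 under most settings, so the 106 overstate how stable the results were. No paired analysis was possible because each condition has 1 library and the labels carry no replicate numbers. Rescaling by the median ratio changed the medians to -0.04 (control) and -0.21 (AML1-ETO) and 0.17 (ETO2-GLIS2) at 12 h and to -0.55, -1.64 and -0.75 at 48 h, and the genes more than 2-fold lower at 48 h from 2 to 4 in the control line (3.95% of all genes) and from 3 to 8 in the ETO2-GLIS2 line (3.25%). Against 0 h of the control line, the medians were -0.41 and -1.77 for AML1-ETO and -0.03 and -0.83 for ETO2-GLIS2, with 21 genes lower at 48 h of ETO2-GLIS2 (4.64% of all genes). The sign of the ETO2-GLIS2 median at 12 h thus depended on the reference library. Subtracting the control line's change gave -0.20 and -1.14 for AML1-ETO and 0.13 and -0.19 for ETO2-GLIS2, with 0 genes lower at 48 h of ETO2-GLIS2. A pseudocount of 1 FPKM gave -1.21 at 48 h of AML1-ETO. A 1.5-fold threshold counted 15 genes lower at 48 h in the control line (7.4% of all genes) and 25 with ETO2-GLIS2 (6.24%), while higher genes numbered 2, 2 and 3 at 12 h and 2, 1 and 1 at 48 h in the control, AML1-ETO and ETO2-GLIS2 lines, against 14.4%, 18.0% and 8.92% of all genes at 12 h and 20.4%, 31.7% and 22.4% at 48 h. Against 12 h of the same line, chosen after seeing the data, the ETO2-GLIS2 median at 48 h was -0.79 with 17 genes lower (2.14% of all genes). The causes were not tested. At the lowest levels, such as POLA2 and PRIM1, counting error limits the values.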
